A study of Columba livia with 18 samples.

Results

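The genes of microtubules and of the motors that walk on them were described in auditory hair cells of the pigeon (Columba livia) with and without cuticulosomes, the iron-rich organelles that sit in the cuticular plate of some avian hair cells. A gene model was a member if the symbol of its closest annotated relative was that of an alpha, beta, gamma, delta or epsilon tubulin, a component of the gamma-tubulin complex (TUBGCP), a kinesin heavy chain (KIF), a kinesin light chain (KLC), a subunit of cytoplasmic dynein (DYNC, DYNL) or a subunit of dynactin (DCTN). The rule used annotated names only. It gave 86 of the 20918 gene models of the table, which bear 65 different symbols.

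The groups compared were hair cells with cuticulosomes and hair cells without cuticulosomes. Both came from the same 9 pigeons, aged 1 year, numbered 433, 434, 435, 450, 451, 458, 513, 514 and 515, and no treatment or strain is given for them. The cochlear duct was dissected, the lagena was cut off, the rest was loosened with trypsin, and 30 cells of each kind were picked by hand under the microscope for each library, so that each bird gave 1 library of each group. Full-length cDNA was made from total RNA, amplified and sequenced, and the 18 libraries ran on 3 flow cells of 3 birds each, with both libraries of a bird on the same one. A library holds the cells that could be told apart by eye and survived the dissociation. Because it pools 30 cells, a difference in the number of cells that express a gene cannot be told apart from a difference in RNA per cell.

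Microtubules are hollow polymers of alpha and beta tubulin whose minus ends are often seeded by gamma tubulin in a ring complex. Most kinesins carry cargo towards the plus end, and cytoplasmic dynein, which works together with dynactin, carries it towards the minus end. In hair cells microtubules run beneath the cuticular plate and along the cell body, form the core of the kinocilium, and serve the traffic of vesicles, endosomes and mitochondria between the apex and the synapses.

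The values are FPKM, fragments per kilobase of transcript scaled to the mapped fragments of a library. Levels of different genes are set side by side per length below. The part of incomplete gene models, of the limit on hits per read and of uneven coverage of amplified cDNA in such comparisons was not tested. The number of gene models above 0 FPKM averaged 11109 ± 1898 with cuticulosomes and 10245 ± 1285 without (mean ± SD, n = 9 birds), with the library with cuticulosomes ahead in 8 of 9 birds. The summed FPKM of 21 gene models of hair cell markers, led by calbindin 1 and otoferlin, was 13099 ± 6091 with cuticulosomes and 13199 ± 5035 without. Calbindin 1 alone averaged 8971 FPKM with and 8681 FPKM without, and was at 0 in 1 library, so the sum mostly follows this gene. Summed markers of supporting cells ranged from 346.0 to 3565 FPKM with and from 420.3 to 1270 FPKM without cuticulosomes, and those of red blood cells from 502.6 to 4690 FPKM with and from 475.3 to 37332 FPKM without. The sums for neurons ranged from 773.4 to 5384 FPKM with and from 929.4 to 3296 FPKM without cuticulosomes, and those for Schwann cells and glia from 0.20 to 2402 FPKM with and from 3.34 to 44.05 FPKM without. Median sums with and without cuticulosomes were 1070 and 777.9 FPKM for supporting cells and 2714 and 943.1 FPKM for red blood cells. For neurons they were 1648 and 1828 FPKM, and for Schwann cells and glia 15.3 and 23.7 FPKM. The sum was higher with cuticulosomes in 6 of 9 birds for supporting cells and in 7 for red blood cells. It was so in 5 for neurons and in 3 for Schwann cells and glia. Among the neuron markers UCHL1 alone averaged 1375 FPKM with and 1226 FPKM without cuticulosomes. A mean of 1 FPKM or less was found for 2 of 21 gene models of hair cells and 6 of 19 of supporting cells (SOX2 among them). The same was so for 4 of 6 of red blood cells, 9 of 19 of neurons and 1 of 7 of Schwann cells and glia. GATA1 was listed at 0 in every library, while HBB (CLIV_015953) averaged 1329 FPKM with and 2857 FPKM without cuticulosomes. Among supporting cell markers TECTB averaged 448.5 FPKM with and 350.9 FPKM without. GJB6 (CLIV_005073) averaged 433.5 FPKM with and 179.9 FPKM without. HBB, TECTB and GJB6 in these gene models were above 0 in every library. The library of pigeon 435 with cuticulosomes stood apart, with the most gene models above 0 (16008), the lowest hair cell marker sum (1569 FPKM) and the highest glial sum (2402 FPKM). The other library of that bird held the highest red blood cell sum (37332 FPKM), with 13221 gene models above 0 and a hair cell sum of 7503 FPKM. Hair cell sums were also low in pigeon 513 without cuticulosomes (4099 FPKM) and pigeon 450 with cuticulosomes (5870 FPKM). The latter library had the highest neuron sum (5384 FPKM). The part of these cell markers in the values below was not tested.

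Of the 86 gene models, 39 were above 0 FPKM in all 18 libraries and 33 were above 1 FPKM in all of them. A mean FPKM above 1 over the 18 libraries, the limit for testing, was passed by 59 gene models with 46 symbols. Of the 27 others, 25 were above 0 in at most 5 libraries, and these include 5 that were listed at 0 in every library. Together the 86 gene models made up 0.50% ± 0.04 of the summed FPKM with cuticulosomes and 0.51% ± 0.07 without. The 9 gene models with a mean over 100 FPKM were 6 light chains of dynein or small subunits of dynactin, 1 kinesin, 1 alpha tubulin and gamma tubulin. The library of pigeon 435 with cuticulosomes had 78 of the 86 gene models above 0, against 52 to 60 in the other 8 libraries with cuticulosomes and 52 to 67 in the 9 libraries without.

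Alpha tubulin was represented mainly by TUBA1A, a major alpha tubulin of differentiating and mature neurons in mammals. Its highest gene model, CLIV_013222 on scaffold 310, ranged from 80.6 to 139 FPKM with cuticulosomes (median 93.9) and from 45.8 to 176 FPKM without (median 89.6). The libraries with cuticulosomes thus lay inside the range of those without, and the spread was wider without cuticulosomes, where pigeon 450 was highest and pigeon 513 lowest. The difference was 0.00 ± 0.24 on the log2 scale (with minus without cuticulosomes, limma estimate ± SE, adjusted p = 0.998), with a 95% interval of 0.70 to 1.43-fold. The other gene models that bear the symbol TUBA1A are CLIV_013223 and CLIV_013221 on the same scaffold and CLIV_020901 on scaffold 2085. They averaged 61.3 ± 13.2, 11.9 ± 3.7 and 52.4 ± 12.5 FPKM with cuticulosomes, against 60.6 ± 26.4, 12.4 ± 6.0 and 53.0 ± 25.5 FPKM without.

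CLIV_013222 was the highest of the 4 TUBA1A gene models in 18 of 18 libraries, by a factor of 1.68 over CLIV_013223 in the mean of log2 values over birds (9 of 9 birds; exact permutation of signs over birds, two-sided, p = 0.0039, which is the lowest that 9 birds allow; adjusted p = 0.013 over 16 pairs of neighbours in level). Neighbours were ordered by the same FPKM values that the test then compared, so its p-values describe only how steady the order was over birds. That holds for every comparison of neighbours below. RefSeq lists 1 pigeon gene under the symbol TUBA1A. Alignments were limited to 1 hit per read, so reads of near-identical tubulins may be missing or split between gene models. The sum of the 4 was 225 ± 38.9 FPKM with cuticulosomes and 231 ± 97.2 FPKM without. FPKM is per length, so a sum can overstate the level where its gene models are parts of 1 gene. This limit holds for every sum given here in which a symbol has more than 1 gene model.

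A gene model called only TUBA (CLIV_009515, scaffold 176) varied more among the libraries than any TUBA1A model. It ranged from 15.3 to 117 FPKM with cuticulosomes (median 66.6) and from 11.1 to 162 FPKM without (median 29.7), and 6 of 9 birds had more of it with cuticulosomes (log2 difference 0.44 ± 0.40, adjusted p = 0.90). TUBA1D was not tested, with a mean of 0.51 FPKM and its highest value, 4.26 FPKM, in the library of pigeon 435 with cuticulosomes. TUBA8 was listed at 0 in all 18 libraries. Added over the 7 gene models, alpha tubulins came to 287 ± 61.6 FPKM with cuticulosomes and 287 ± 136 FPKM without, with the sum higher with cuticulosomes in 5 of 9 birds. This sum leaves out the alpha tubulins that carry no such symbol, which are given with the beta tubulins below.

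TUBB4B, a beta tubulin found in cilia and many other microtubules, was the single beta tubulin that carried a symbol. It ranged from 19.3 to 64.3 FPKM with cuticulosomes (median 32.7) and from 17.4 to 49.9 FPKM without (median 26.8), so that the groups overlapped over most of their ranges. The log2 difference was 0.25 ± 0.31 (adjusted p = 0.92). A further 7 tubulins are annotated by name without a vertebrate symbol and so fell outside the choice. Of these, a gene model similar to chicken tubulin beta-1 (CLIV_015463), on scaffold 230 like TUBB4B, had 111 ± 50.7 FPKM in the libraries with cuticulosomes and 90.0 ± 57.2 FPKM in those without, and a gene model similar to chicken alpha-5 (CLIV_003557) had 76.6 ± 158 FPKM with and 19.0 ± 45.0 FPKM without. A second alpha-5 model (CLIV_003556) had 17.5 ± 34.0 FPKM with and 5.49 ± 13.6 FPKM without. The log2 differences were 1.32 ± 0.76 for CLIV_003557 and 0.95 ± 0.70 for CLIV_003556. Those of the models similar to chicken beta-5 (CLIV_014526) and beta-6 (CLIV_002632) were -0.90 ± 0.57 and -0.52 ± 0.52. None of the 6 tested among these 7 tubulins passed the threshold (lowest adjusted p = 0.90). The beta tubulin level given by TUBB4B alone and the alpha tubulin sum above are therefore each a part of what the table holds.

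Gamma tubulin (TUBG1), the template for new microtubules, was the highest member of the nucleation class. It ranged from 39.8 to 144 FPKM with cuticulosomes (median 81.6) and from 23.6 to 351 FPKM without (median 73.0). Its 3 highest libraries were those of pigeons 515, 450 and 451 without cuticulosomes, and its lowest was that of pigeon 434 without cuticulosomes. The log2 difference was -0.03 ± 0.42 (adjusted p = 0.996) and TUBG1 was higher with cuticulosomes in 6 of 9 birds.

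The gamma-tubulin complex proteins, which arrange gamma tubulin into the ring, followed in the order TUBGCP2, TUBGCP4, TUBGCP3, TUBGCP5 and TUBGCP6. TUBGCP2 ranged from 13.96 to 127 FPKM with cuticulosomes (median 63.0) and from 10.3 to 74.9 FPKM without (median 44.2), and the library with cuticulosomes was the higher one in 7 of 9 birds. That difference, 0.35 ± 0.28 on the log2 scale, did not pass the test (exact sign-flip p = 0.15, limma adjusted p = 0.90). TUBGCP4 averaged 27.0 ± 20.6 FPKM with and 31.9 ± 24.2 FPKM without cuticulosomes, and TUBGCP3 averaged 13.5 ± 15.4 FPKM with and 11.7 ± 10.7 FPKM without. Over birds, TUBGCP2 lay above TUBGCP4 (exact sign-flip test, adjusted p = 0.036), whereas TUBG1 against TUBGCP2 and TUBGCP4 against TUBGCP3 did not differ beyond the spread (both adjusted p = 0.069). Epsilon tubulin (TUBE1) and delta tubulin (TUBD1), which belong to centrioles, were above 0 in 7 and 4 of 18 libraries.

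**Figure D1:**
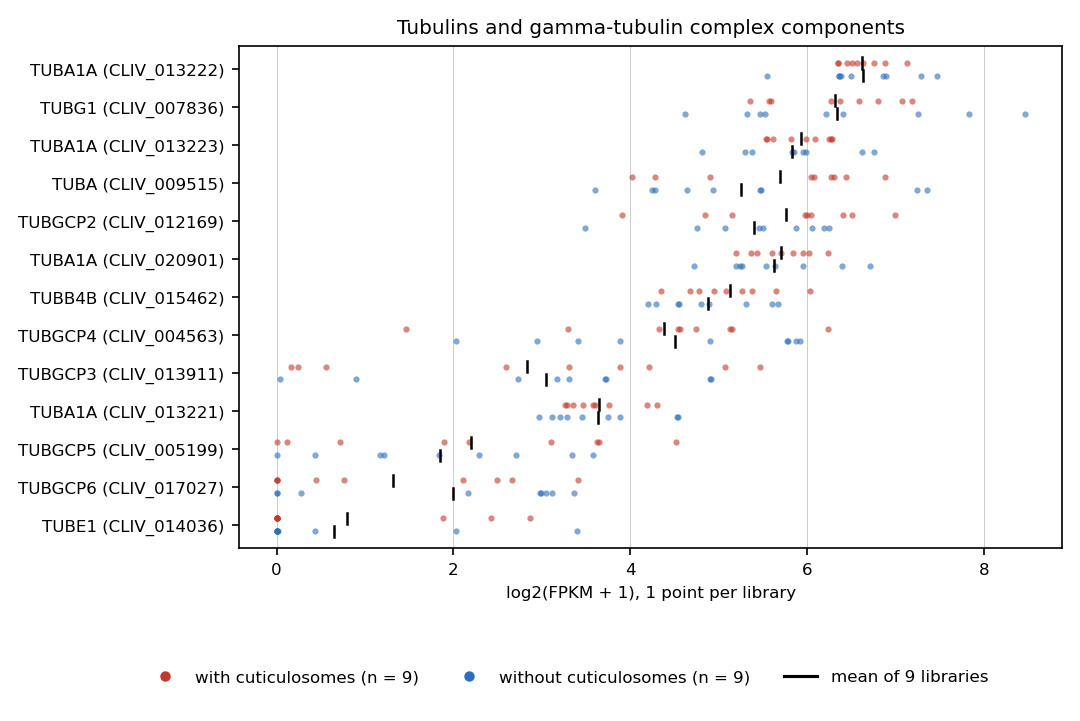
FPKM of the 13 tested gene models of tubulins and gamma-tubulin complex components, as log2(FPKM + 1), with 1 point per library, red for the 9 libraries with and blue for the 9 without cuticulosomes; black ticks mark the means of the log2 values. Red and blue points overlap in every row, and the points of a TUBA1A row spread less than those of TUBGCP3 to TUBGCP6, which reach down to or near 0.

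Kinesin heavy chains formed the largest class, with 43 gene models, of which 22 were tested. Among the transport motors of the kinesin-3 family, KIF1B, which moves mitochondria and synaptic vesicle precursors in mammalian neurons, was the most abundant kinesin. Its gene model CLIV_006553 on scaffold 80 ranged from 42.2 to 278 FPKM with cuticulosomes (median 161) and from 83.4 to 220 FPKM without (median 132). Its lowest and its highest value both occurred with cuticulosomes, in pigeons 435 and 451. The log2 difference was 0.06 ± 0.20 (adjusted p = 0.98), with an interval of 0.77 to 1.4-fold.

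The second gene model similar to KIF1B, CLIV_003357 on scaffold 693, was the only tested member with an unadjusted p under 0.05. With cuticulosomes it had 68.3, 50.7, 82.8, 31.7, 76.8, 57.1, 26.8, 34.6 and 44.7 FPKM in pigeons 433, 434, 435, 450, 451, 458, 513, 514 and 515, and without cuticulosomes 52.1, 53.1, 63.4, 5.45, 54.7, 37.4, 8.92, 50.8 and 14.7 FPKM in the same birds. The 3 libraries under 20 FPKM, of pigeons 450, 513 and 515, were all without cuticulosomes, and the other 6 libraries of that group lay within the range of those with cuticulosomes. The mean was 52.6 ± 20.2 FPKM with and 37.8 ± 22.2 FPKM without cuticulosomes, and the level was higher with cuticulosomes in 7 of 9 birds. The log2 difference was 0.73 ± 0.32, or 1.66-fold with an interval of 1.04 to 2.67 (limma p = 0.037; exact sign-flip test over the 9 birds, two-sided, p = 0.043). After adjustment over all 11393 gene models tested it did not pass (adjusted p = 0.90).

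Without pigeon 435 the log2 difference of CLIV_003357 was 0.78 ± 0.34 (adjusted p = 0.93), and on the 3 flow cells it was 0.23, 1.14 and 0.83 (pigeons 433 to 435, pigeons 450 to 458 and pigeons 513 to 515). Leaving out pigeon 450, 458, 513 or 515 in turn took the unadjusted p above 0.05. The 2 KIF1B models lie on different scaffolds, RefSeq lists 1 pigeon gene of this name, and whether the 2 models are parts of 1 gene was not tested. Their sum was 212 ± 74.5 FPKM with and 182 ± 50.0 FPKM without cuticulosomes. In 17 of 18 libraries CLIV_006553 was the higher of the pair, with pigeon 435 with cuticulosomes as the exception.

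KIF21A, a slow kinesin that restrains microtubule growth at the cell cortex, and KIF3A, the first motor subunit of the kinesin-2 that drives transport along cilia, came next. KIF21A ranged from 33.0 to 101 FPKM with cuticulosomes (median 83.8) and from 45.8 to 112 FPKM without (median 100.1), and was lower with cuticulosomes in 7 of 9 birds (log2 difference -0.25 ± 0.23, adjusted p = 0.90). KIF3A ranged from 20.6 to 125 FPKM with cuticulosomes (median 59.0) and from 33.5 to 127 FPKM without (median 73.7; log2 difference -0.10 ± 0.24, adjusted p = 0.97). CLIV_006553 of KIF1B exceeded KIF21A in 9 of 9 birds (1.84-fold, adjusted p = 0.013), while KIF21A against KIF3A (adjusted p = 0.27) and KIF3A against CLIV_003357 (adjusted p = 0.16) did not differ beyond the spread over birds.

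KIF3B, the partner of KIF3A in the heterotrimeric kinesin-2, was represented by 3 gene models at lower levels. The highest, CLIV_002501 on scaffold 36, ranged from 0 to 10.6 FPKM with cuticulosomes (median 3.27) and from 0 to 10.8 FPKM without (median 4.73). With cuticulosomes 4 of 9 libraries, of pigeons 450, 513, 514 and 515, were under 0.2 FPKM, whereas 1 of 9 without cuticulosomes, that of pigeon 515, was. The library with cuticulosomes was the lower one in 6 of 9 birds, with a log2 difference of -0.95 ± 0.51 that did not pass the test (limma p = 0.082; exact sign-flip test over birds, p = 0.055; adjusted p = 0.90). The second model, CLIV_019639, was above 0 in 8 libraries, with its highest value, 19.0 FPKM, in pigeon 451 with cuticulosomes, and the third was listed at 0 throughout. The sum of the 3 was 5.58 ± 7.33 FPKM with and 6.61 ± 3.88 FPKM without cuticulosomes.

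**Figure D2:**
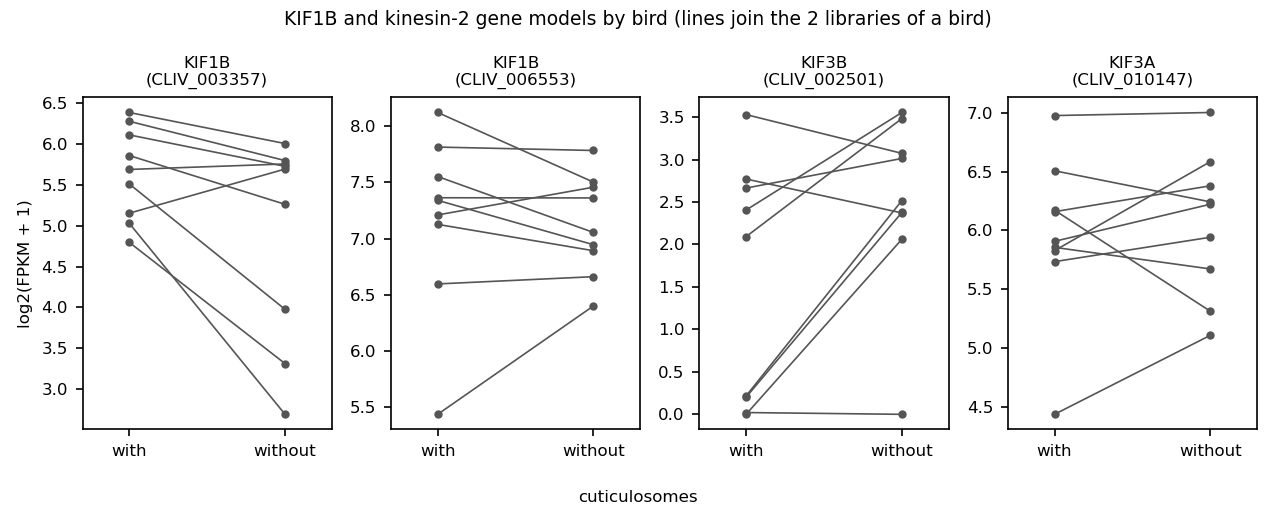
Log2(FPKM + 1) of 2 gene models of KIF1B, of KIF3B (CLIV_002501) and of KIF3A in each bird, with a line joining the library with cuticulosomes (left) to the library without (right) of the same bird; each panel has its own vertical axis, which does not start at 0. The lines of CLIV_003357 go down in 7 of 9 birds and those of KIF3B go up in 6 of 9, while those of CLIV_006553 and KIF3A run both ways.

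KIF5B, the ubiquitous heavy chain of conventional kinesin (kinesin-1), averaged 28.5 ± 9.8 FPKM with and 28.7 ± 9.8 FPKM without cuticulosomes (log2 difference -0.03 ± 0.32, adjusted p = 0.995). Its lowest and highest libraries were pigeon 513 with cuticulosomes (12.3 FPKM) and pigeon 433 without (48.7 FPKM). The other heavy chains of conventional kinesin, which are characteristic of neurons in mammals, were lower: KIF5C averaged 5.53 ± 3.57 FPKM with and 4.31 ± 4.71 FPKM without cuticulosomes, and KIF5A was listed at 0 in all 18 libraries. KIF1A, the main carrier of synaptic vesicle precursors in mammalian neurons, was above 0 in 1 library. KIF5A and KIF1A had 1 gene model each, and RefSeq lists 0 pigeon genes under the symbol KIF5A. Whether these models are complete was not tested. KIF5C, KIF5A and KIF1A were singled out after their values were seen.

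KLC1, the light chain through which conventional kinesin binds cargo, had 2 gene models. CLIV_013120 averaged 20.5 ± 10.6 FPKM with and 26.7 ± 15.3 FPKM without cuticulosomes (log2 difference -0.32 ± 0.45, adjusted p = 0.93), and CLIV_004189 averaged 4.90 ± 5.46 FPKM with and 1.97 ± 2.36 FPKM without (0.66 ± 0.57, adjusted p = 0.90). These models differed in the direction of their means, and neither difference exceeded its error by enough to pass. CLIV_013120 was the higher model in 18 of 18 libraries, 7.26-fold over birds (exact sign-flip test, adjusted p = 0.013). The log2 difference of CLIV_004189 was 1.41 ± 0.59 without the flow cell of pigeons 450, 451 and 458 (limma unadjusted p = 0.037, adjusted p = 0.88) and -0.05 without that of pigeons 433, 434 and 435.

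KIF16B, which carries early endosomes towards the plus end in mammalian cells, had 3 gene models, all on scaffold 178. CLIV_017735 ranged from 0 to 52.8 FPKM with cuticulosomes (median 22.2) and from 0 to 29.8 FPKM without (median 8.11), CLIV_017734 from 0 to 28.8 FPKM with (median 5.43) and from 0 to 7.25 FPKM without (median 4.81), and CLIV_017732 from 0 to 47.3 FPKM with (median 6.32) and from 0 to 10.01 FPKM without (median 0). The log2 differences were 0.61 ± 0.66, 0.37 ± 0.52 and 0.99 ± 0.62, and none passed the test (unadjusted p = 0.37, 0.49 and 0.13, each with an adjusted p of 0.90 or more). The highest values of CLIV_017734 and CLIV_017732 were both in pigeon 435 with cuticulosomes, the library that stands apart; without that bird their log2 differences were 0.15 and 0.70. That of CLIV_017735 was 0.04 without pigeon 514 and -0.07 without the flow cell of pigeons 513, 514 and 515. The 3 models summed to 41.0 ± 32.3 FPKM with and 18.7 ± 11.9 FPKM without cuticulosomes.

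KIF2A, a kinesin that takes microtubules apart from their ends, ranged from 3.68 to 23.7 FPKM with cuticulosomes (median 18.3) and from 2.34 to 46.2 FPKM without (median 20.2; log2 difference -0.31 ± 0.44, adjusted p = 0.93). The gene models of KIF6, a kinesin of motile cilia, lie on scaffold 109, where CLIV_006193 averaged 7.27 ± 6.17 FPKM with and 11.6 ± 15.0 FPKM without cuticulosomes and CLIV_006190 averaged 1.34 ± 2.77 FPKM with and 0.78 ± 1.55 FPKM without. Without pigeon 458 the means of CLIV_006193 were 8.17 FPKM with and 7.03 FPKM without. Neither model passed the test. The remaining tested kinesins had means of 1.47 to 18.2 FPKM over all libraries, with KIF25 the highest and KIF11 the lowest, and log2 differences from -0.88 to 0.62.

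Kinesins grouped here under the mitotic spindle, cytokinesis and chromosome movement were mostly near the limit of detection. The group held KIF2C and left out KIF2A, which averaged 19.5 FPKM over the 18 libraries. Of 11 gene models of this kind, a grouping made after the levels were seen, 9 had a mean of 1 FPKM or less, and KIF23 (1.92 FPKM) and KIF11 (1.47 FPKM) were tested, with single libraries reaching up to 12.2 FPKM. The 2 gene models of KIF20A and the 4 of KIF26B were all below a mean of 1 FPKM.

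**Figure D3:**
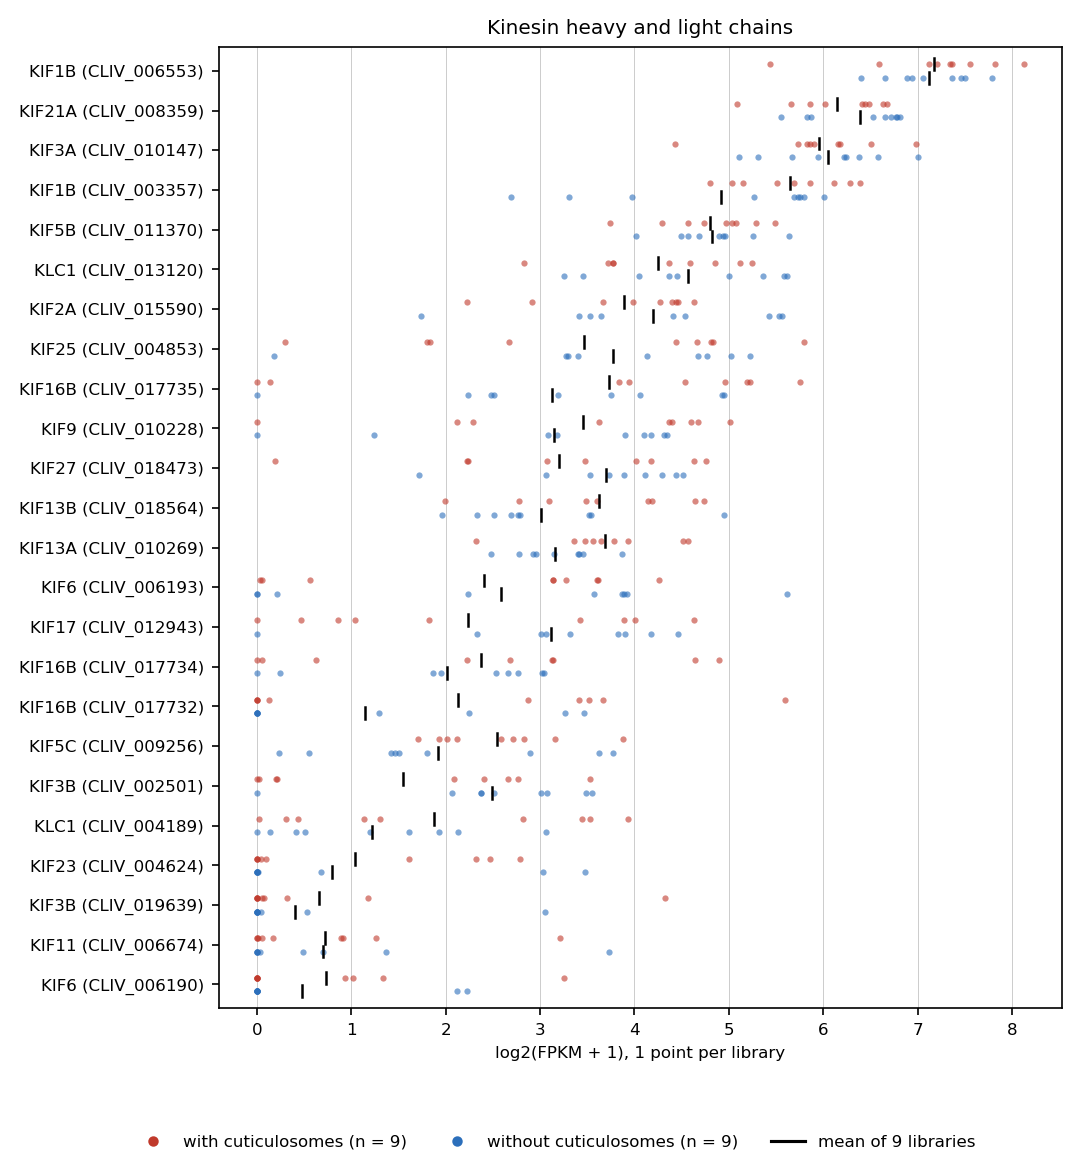
FPKM of the 24 tested gene models of kinesin heavy and light chains, as log2(FPKM + 1), with 1 point per library, red for the 9 libraries with and blue for the 9 without cuticulosomes; black ticks mark the means of the log2 values. CLIV_006553 of KIF1B, KIF21A and KIF3A head the order, and from KIF25 downwards most rows include libraries at or near 0 in both groups.

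Cytoplasmic dynein is built on a heavy chain that holds the motor, with intermediate, light intermediate and light chains that bind cargo and adaptors. The heavy chain DYNC1H1 ranged from 5.75 to 19.4 FPKM with cuticulosomes (median 12.0) and from 2.04 to 23.8 FPKM without (median 11.5). It was above 1 FPKM in every library, and the groups overlapped almost completely (log2 difference -0.04 ± 0.40, adjusted p = 0.995). The intermediate chain DYNC1I2 averaged 51.5 ± 26.1 FPKM with and 57.1 ± 12.9 FPKM without cuticulosomes, and the light intermediate chain DYNC1LI1 averaged 63.9 ± 35.6 FPKM with and 58.3 ± 14.5 FPKM without. The neuronal intermediate chain DYNC1I1 was above 0 in 4 libraries in CLIV_007875 and in 3 in CLIV_007876; both models had their highest values in pigeons 434 and 514 with cuticulosomes.

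The light chains DYNLRB2, DYNLL2 and, in its gene models on scaffold 143, DYNLL1 were at much higher FPKM than the heavy chain DYNC1H1. The light chains DYNLT1 and DYNLT3 had medians of 42 and 22 FPKM over the 18 libraries, beside 11.8 FPKM for DYNC1H1. DYNLRB2, a light chain of the roadblock family, ranged from 94.9 to 851 FPKM with cuticulosomes (median 191) and from 98.9 to 417 FPKM without (median 224), with pigeon 450 with cuticulosomes as its single value above 500. The log2 difference was 0.09 ± 0.24 (adjusted p = 0.97). DYNLL2, a light chain of the LC8 family that dimerises many partners of dynein, ranged from 112 to 348 FPKM with cuticulosomes (median 208) and from 149 to 438 FPKM without (median 207; log2 difference -0.17 ± 0.23, adjusted p = 0.93). These 2 did not differ from each other beyond the spread over birds (adjusted p = 0.80).

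DYNLL1, the other light chain of the LC8 family, had 4 gene models. CLIV_008861 and CLIV_008859, both on scaffold 143, averaged 146 ± 71.9 and 115 ± 63.0 FPKM with cuticulosomes, against 137 ± 24.0 and 118 ± 30.7 FPKM without (log2 differences -0.04 ± 0.22 and -0.15 ± 0.25, adjusted p = 0.99 and 0.94). The 2 models on scaffold 72, CLIV_005847 and CLIV_005844, were above 0 in 1 and in none of the 18 libraries. CLIV_008861 exceeded CLIV_008859 in 9 of 9 birds by a factor of 1.23 (exact sign-flip test, adjusted p = 0.013). RefSeq lists 0 pigeon genes under the symbol DYNLL1, and whether the models are copies or parts of 1 gene was not tested. As with TUBA1A, reads may be missing or split between the models, so the split is uncertain.

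DYNLT1 and DYNLT3 are light chains of the Tctex family. DYNLT1 averaged 60.4 ± 54.8 FPKM with and 47.5 ± 35.8 FPKM without cuticulosomes, and 43.1 FPKM with and 46.7 FPKM without when pigeon 450 was left out. DYNLT3 averaged 46.1 ± 78.5 FPKM with and 35.3 ± 26.9 FPKM without cuticulosomes, and its highest value, 252 FPKM, was in pigeon 435 with cuticulosomes. Without that bird its means were 20.4 FPKM with and 28.2 FPKM without cuticulosomes. DYNLT3 was lower with cuticulosomes in 5 of 9 birds, with a log2 difference of -0.41 ± 0.56 (limma adjusted p = 0.93), which was 0.15 without pigeon 451.

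Dynein-2 carries cargo from the tip of cilia back to their base. Its light intermediate chain DYNC2LI1 averaged 80.8 ± 44.1 FPKM with and 78.6 ± 36.6 FPKM without cuticulosomes. Its heavy chain DYNC2H1 had 2 gene models on scaffold 59, where CLIV_005130 averaged 3.56 ± 1.28 FPKM with and 3.44 ± 3.26 FPKM without cuticulosomes and CLIV_005129 averaged 2.39 ± 4.10 FPKM with and 2.21 ± 2.87 FPKM without. CLIV_005129 was at 0 in 5 libraries with and 2 without cuticulosomes. None of the gene models of dynein-2 passed the test.

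Dynactin is the large complex that activates dynein and links it to cargo, and all 8 of its gene models were tested. DCTN3, a subunit of its shoulder, was the highest of all 86 gene models. It ranged from 85.1 to 588 FPKM with cuticulosomes (median 395) and from 123 to 509 FPKM without (median 352), and pigeons 435 and 451 were below 150 FPKM in both groups. Its difference was the most closely bounded of the tested members, at -0.08 ± 0.17 on the log2 scale (adjusted p = 0.96), with an interval of 0.74 to 1.21-fold.

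DCTN6 and DCTN5, subunits of the pointed end of dynactin, followed. DCTN6 ranged from 192 to 580 FPKM with cuticulosomes (median 261) and from 179.9 to 344 FPKM without (median 297; log2 difference 0.13 ± 0.20, adjusted p = 0.94), and DCTN5 from 29.3 to 120 FPKM with (median 56.8) and from 47.4 to 341 FPKM without (median 69.9; -0.37 ± 0.39, adjusted p = 0.90). Without pigeon 515 the log2 difference of DCTN5 was 0.02. DCTN3 and DCTN6 did not differ beyond the spread over birds (adjusted p = 0.65), whereas DCTN6 lay above DCTN5 in 9 of 9 birds, 3.67-fold (adjusted p = 0.013).

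DCTN2, or dynamitin, whose excess breaks dynactin apart, had 3 gene models: CLIV_011709 averaged 64.5 ± 18.2 FPKM with and 63.9 ± 24.3 FPKM without cuticulosomes, CLIV_018980 20.2 ± 8.5 FPKM with and 25.9 ± 18.7 FPKM without, and CLIV_021049 13.4 ± 4.2 FPKM with and 14.8 ± 6.7 FPKM without. Their sum was 98.0 ± 19.2 FPKM with and 105 ± 34.2 FPKM without cuticulosomes. DCTN1, the subunit that contacts the microtubule, had the lowest level of the complex, at 3.34 ± 3.22 FPKM with cuticulosomes and 2.30 ± 3.16 FPKM without. It was above 0 in 15 libraries.

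**Figure D4:**
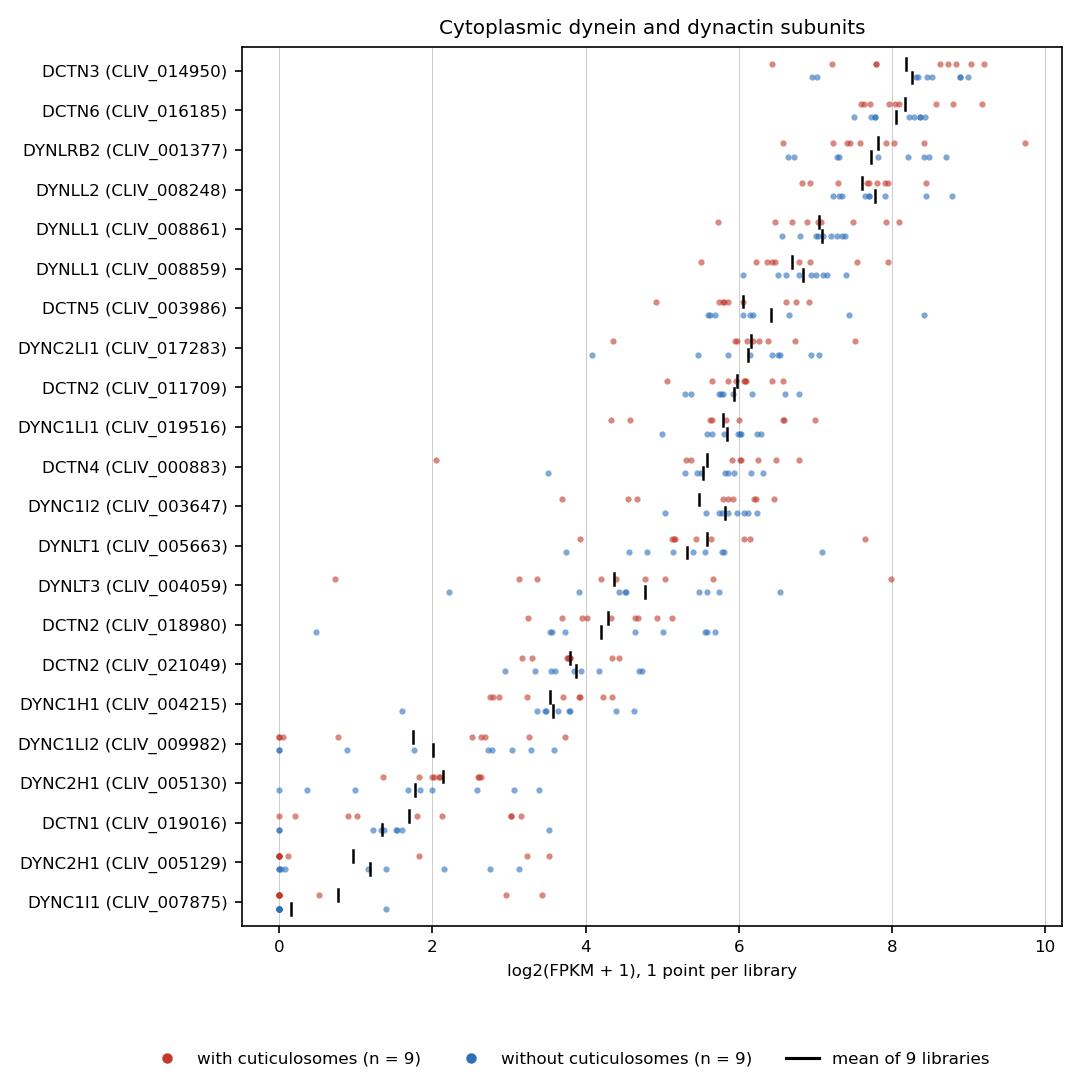
FPKM of the 22 tested gene models of cytoplasmic dynein and dynactin, as log2(FPKM + 1), with 1 point per library, red for the 9 libraries with and blue for the 9 without cuticulosomes; black ticks mark the means of the log2 values. DCTN3, DCTN6 and the light chains DYNLRB2, DYNLL2 and DYNLL1 lie at the top, with DYNLT1 and DYNLT3 further down. DYNC1H1 and DCTN1 lie near the bottom, and the groups overlap in every row.

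The study compared the cell types to find genes that differ between hair cells with and without the organelle. Its own test, DESeq2 on read counts with the bird as a block, gave significant genes in both directions after adjustment. Some of these were also measured by qPCR. The test used here is a different one, on FPKM, and its outcome does not replace theirs. None of the 59 tested members passed the adjusted threshold of 0.05 in either direction (limma on log2(FPKM + 1), bird as a block, lowest adjusted p = 0.90), where the share of all 11393 gene models tested that passed was 0%. At an unadjusted p under 0.05, 1 member was higher with cuticulosomes, CLIV_003357 of KIF1B, or 1.69% of the tested members against 3.27% of all gene models tested, and 0 members were lower against 2.01%. By the exact sign-flip test over birds the same 1 member had a p under 0.05, and no member went the same way in 9 of 9 birds.

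The log2 differences of the members centred on 0, with 32 above and 27 below it. Their median was 0.04, beside 0.05 for all gene models tested, and the median of their absolute size was 0.25, beside 0.33. A difference under 0.5 in size was found for 47 members (79.7%) and for 66.7% of all gene models tested. A mean above 10 FPKM was reached by 40 of the 59 tested members and by 5652 of all 11393 gene models tested. The sizes were not compared at matched levels, so the part of the level in them was not tested. By class, the number above and below 0 was 4 and 1 for alpha tubulins, 3 and 4 for the gamma-tubulin class, 13 and 9 for kinesin heavy chains, 5 and 9 for dynein and 5 and 3 for dynactin. Gene models that share a symbol were counted separately and are not independent. Of the 5 tested alpha tubulins, 4 bear the symbol TUBA1A. The summed FPKM of kinesin heavy chains was 543 ± 124 with and 509.5 ± 108 without cuticulosomes, that of dynein 1070 ± 381 with and 1027 ± 202 without, and that of dynactin 882 ± 232 with and 877 ± 236 without.

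The precision varied with the level. For 24 of the 59 tested members the 95% interval of the difference lay within 2-fold in either direction, and this was so for 19 of the 22 members with a mean above 50 FPKM. For the other 35 the interval reached beyond a 2-fold change in at least 1 direction.

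**Figure D5:**
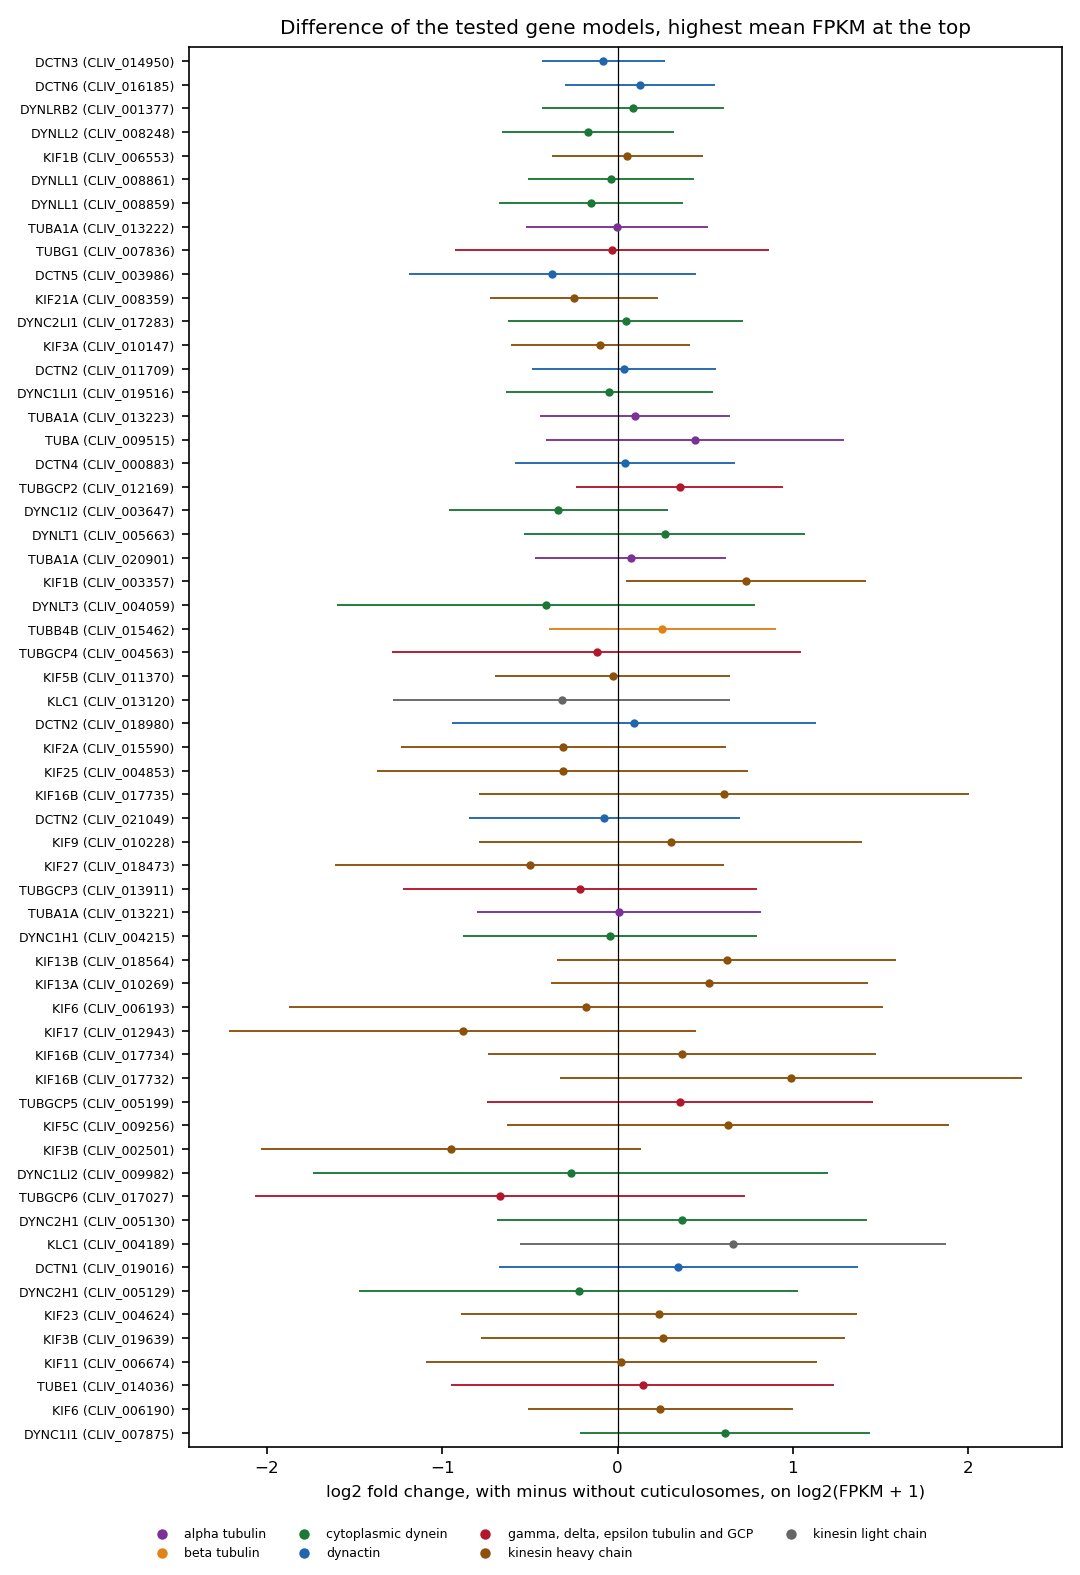
Log2 fold change (with minus without cuticulosomes) of the 59 tested gene models, with the highest mean FPKM at the top; points are limma estimates, bars their 95% intervals, and colours the classes. The interval of 1 member, CLIV_003357 of KIF1B, leaves 0 out, at 0.05 to 1.42, and intervals widen towards the bottom, where levels are low.

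The direction of the differences varied between birds and flow cells. The median log2 difference over the 59 tested members was 0.10 on the flow cell of pigeons 433, 434 and 435, -0.36 on that of pigeons 450, 451 and 458 and 0.22 on that of pigeons 513, 514 and 515, beside 0.01, -0.02 and 0.14 for all gene models tested. Among gene models with a mean above 10 FPKM, the medians in the same order of flow cells were -0.05, -0.37 and 0.20 for the 40 members and -0.03, -0.09 and 0.12 for all 5652. On the second of these, 23 of 59 members were above 0, and on the third 42 of 59. The same sign on all 3 flow cells was found for 4 of 59 members (6.78%), beside 25.3% of all gene models tested. Members that share a symbol, such as the 4 TUBA1A gene models, are counted separately in that share and are not independent. Pigeon 450 contributed the lowest median of a single bird, at -0.44, where above a mean of 10 FPKM the median was -0.40 for the members and -0.30 for all 5652 gene models, and its library without cuticulosomes held the highest value of each of the 4 TUBA1A gene models.

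A test of whether the difference itself varied between flow cells (interaction in limma) passed the adjusted threshold for 0 gene models of the table. At an unadjusted p under 0.05 it gave 2 of 59 members (3.39%), beside 4.55% of all gene models tested. The first was KIF17, a homodimeric kinesin-2 that enters cilia, with log2 differences of -0.14, -3.07 and 0.56 in the order of the flow cells above. The second was CLIV_006193 of KIF6, with 0.15, -2.72 and 2.03. Both had an adjusted p of 0.99 in limma, and KIF17 was singled out for these values.

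Other genes of microtubules outside the choice were read from lists of 113 symbols, which matched 115 gene models, 97 of them tested. None passed the adjusted threshold, and at an unadjusted p under 0.05, 3 were higher (3.09%, beside 3.27% of all gene models tested) and 4 lower (4.12%, beside 2.01%) with cuticulosomes, with 47 log2 differences above and 50 below 0 and a median of -0.03. MAP1LC3B, which was first purified with microtubules and marks autophagosomes, averaged 553 ± 191 FPKM with and 614 ± 130 FPKM without cuticulosomes, and KIFAP3, the third subunit of kinesin-2 beside KIF3A and KIF3B, averaged 198 ± 91.5 FPKM with and 196 ± 52.6 FPKM without. TTLL12, of the tubulin tyrosine ligase-like family, averaged 142 ± 56.4 FPKM with and 207 ± 96.0 FPKM without (log2 difference -0.56 ± 0.24, limma adjusted p = 0.90). The dynein adaptor HOOK1 (25.2 ± 11.5 FPKM with and 14.6 ± 11.4 FPKM without cuticulosomes) had the lowest unadjusted p among the cofactors of dynein and kinesin, at 0.041, and was singled out for that value.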

How the data were processed

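The authors aligned reads with TopHat 1.4.1 and estimated FPKM with Cufflinks 1.3.0. The deposited table holds FPKM of 20918 gene models in 18 libraries and columns of the authors' own DESeq2 1.10.1 comparison on HTSeq counts (mean count, log2 fold change, its error, statistic and p-values), which were not used. It holds no counts per library, and depth was not estimated here.

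Gene models with a mean FPKM above 1 (11393) were tested with limma 3.58.1 in R 4.3.3 on log2(FPKM + 1), which understates changes of low genes, with an intensity trend, the bird as a block and Benjamini-Hochberg adjustment. The pairing comes from bird numbers in the labels: deviations from group means correlated at 0.12 to 0.59 between libraries of 1 bird (median 0.18) and at a median of -0.06 between birds. Single members and neighbours in level were compared by exact two-sided sign-flip tests over birds. The fit was first tested on simulated data.

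Members in the text are the 4 highest of each class (6 for kinesin heavy chains), those with an unadjusted p under 0.05, those moving 1 way in 9 birds and those sharing a symbol; others named were chosen after their values were seen. Members and lists were chosen with earlier results of these data known. Names come from the table's annotation; 57 of 65 symbols match a RefSeq gene of assembly bColLiv1.pat.W.v2, whose coordinates were not used. Python 3.11.15 with pandas 2.3.3 and scipy 1.17.1 did the rest. Alternatives were no block, the flow cell in its place, other filters, a pseudocount of 0.1, other scaling, no trend, robust variances and each bird or flow cell left out. The negative control libraries were not analysed here.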

Additional observations from a re-analysis of the deposited data

Results flagged for a closer look

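Of 76 groups of 9 libraries tested for a single library far from the others (Dixon's ratio on log2(FPKM + 1)), 7 had one, where chance flags about 1 in 20 groups if the values are normally distributed, which those of gene models with many zeros are not. Of these, 3 were of KIF3B, in both tested gene models. CLIV_002501 was at 0 FPKM in pigeon 515 without cuticulosomes, where the next library had 3.18 FPKM. CLIV_019639 had 19.0 FPKM in pigeon 451 with cuticulosomes, beside 1.27 FPKM in the next, and 7.31 FPKM in pigeon 433 without cuticulosomes, beside 0.44 FPKM. KIF3A had 20.6 FPKM in pigeon 435 with cuticulosomes, beside 52.3 FPKM in the next lowest, and KIF6 (CLIV_006190) had 8.57 FPKM in pigeon 433 with cuticulosomes, beside 1.52 FPKM. DYNC1I1 (CLIV_007875) had 1.63 FPKM in pigeon 434 without cuticulosomes, with the other 8 libraries of that group at 0, where any value above 0 gives the largest ratio possible, and DCTN2 (CLIV_018980) had 0.40 FPKM in pigeon 513 without cuticulosomes, beside 10.6 FPKM. Of the 7, 5 belong to gene models with a mean under 5 FPKM.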

How the results depend on the processing

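Under every alternative run, 0 members and 0 gene models of the whole table passed the adjusted threshold, and the lowest adjusted p of a member ranged from 0.83 to 1.0. With limma and no replicate block, so that libraries were not paired by bird, 0 members were higher at an unadjusted p under 0.05, in place of 1. The number was also 0 with the flow cell in place of the bird, with no trend and without the flow cell of pigeons 513, 514 and 515, and 2 without that of pigeons 433, 434 and 435 (CLIV_003357 of KIF1B and TUBGCP2). Without that of pigeons 450, 451 and 458 it was 1, which was CLIV_004189 of KLC1 and not KIF1B. Leaving out each bird gave 0 to 1 higher (0 without 450, 458, 513 or 515) and 0 to 1 lower (1 without 435). The number lower was 1, KIF3B (CLIV_002501), with no filter, with no trend and without the flow cell of pigeons 433, 434 and 435, in place of 0. The causes were not tested. The log2 difference of CLIV_003357 stayed between 0.53 and 0.98 over all alternatives. Of the 38 tested members that the naming rule gives, 25 changed sign under at least 1 alternative and 13 under none. With FPKM alone and no read counts, low values carry no estimate of counting error here.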
